A study of Mus musculus with 10 samples.

Results

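The genes described here are 10 genes that mark arterial endothelium, carry Notch signals or respond to blood flow in the vessel wall. They are Klf2, Klf4, Notch1, Notch4, Dll4, Jag1, Hey1, Efnb2, Gja4 and Gja5, taken by name from the 15341 genes of the count table, and all 10 were found there by their Ensembl identifiers. RNA was sequenced from hearts of 10 male mice. Of these, 5 were S1Pless (Sphk1f/-:Sphk2f/-:Mx1Cre+) and 5 were littermate controls (Sphk1f/-:Sphk2f/-:Mx1Cre-). Both groups therefore carried a floxed and a null allele of Sphk1 and of Sphk2, the genes of the kinases that make sphingosine 1-phosphate (S1P), and only the S1Pless animals carried Mx1-Cre. The Mx1 promoter that drives the recombinase is induced by interferon and is active in blood-forming cells and, to a varying extent, in other tissues, so recombination need not be limited to blood cells. For the age of the animals and any induction of the recombinase, nothing is given in the sources used here. The comparison asks whether the arterial and flow-dependent programme of the coronary endothelium differs in hearts of animals described as lacking S1P in plasma.

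Notch signalling passes between touching cells. A ligand such as Dll4 or Jag1 on one cell binds a Notch receptor on its neighbour, ADAM and gamma-secretase proteases cut the receptor, and the freed part joins RBPJ in the nucleus to switch on genes of the Hey and Hes families. In endothelium this pathway sets arterial identity, which is marked by ephrin-B2 and by the connexins 37 and 40. Laminar flow acts on the same cells through the kinases MEK5 and ERK5 and the MEF2 factors, which raise Klf2 and Klf4, and the S1P receptor of endothelium is itself sensitive to flow.

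The libraries held 16354071 to 20832566 counts in S1Pless hearts and 17204491 to 20202283 in control hearts. CPM below stands for counts per 1000000 effective counts, that is, after scaling by TMM factors. These factors lay between 0.996 and 1.08 in S1Pless hearts and between 0.884 and 1.00 in controls. The heart muscle genes were abundant in every library, with Myh6 at 14081 to 20377 CPM in S1Pless hearts and 17053 to 21482 CPM in controls. The 18 general endothelial markers summed to 2320 to 2722 CPM in S1Pless hearts and 2237 to 2563 CPM in controls, and none of the 18 was at 0 in any heart. The targeted kinase genes, Sphk1 and Sphk2, averaged 0.723 ± 0.21 and 16.8 ± 1.9 CPM in S1Pless hearts, against 1.21 ± 0.36 and 20.2 ± 2.3 CPM in controls (SD, n = 5 each), and neither passed the test (edgeR adjusted p = 0.168 and 0.180). Counts cover the whole gene, so reads outside the deleted part are included. S1Pless replicate 3 was the only heart with more than traces of Myl7 and Sln, both atrial transcripts, with the atrial myosin light chain Myl7 at 9.69 CPM against at most 0.14 CPM in every other heart. Nppa, an atrial hormone gene that ventricles can also express, was not high in that heart, at 77.9 CPM against 93.2 to 333 CPM in the other S1Pless hearts and 21.8 to 260 CPM in controls. S1Pless replicate 5 had the highest macrophage marker sum. In RNA from heart tissue with its mixed cells, fewer cells of a type and less RNA per cell cannot be told apart.

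None of the 10 genes passed the threshold of an adjusted p below 0.05. Of the 12992 genes tested, 3.72% passed it, 3.40% with a higher and 0.316% with a lower level in S1Pless hearts (quasi-likelihood test of edgeR, Benjamini-Hochberg adjusted). All 10 genes were tested, with 96 to 1867 reads per library. DESeq2 also called 0 of the 10, against 7.37% of all genes (5.45% higher), and so did limma-voom, against 4.42% (3.98% higher). An unadjusted p below 0.05 in the edgeR test was seen for Notch4, Jag1, Dll4 and Efnb2, all with higher means in S1Pless hearts, against 13.0% of all genes in that direction and 19.9% in both. The log2 fold change was above 0 for 9 of the 10 genes (8 when scaled to endothelial markers, where Gja4 turned), against 47.4% of all genes, with a median of 0.20 against -0.01 over all genes. It was below 0 for Gja5 alone. Of the general endothelial markers 72.2% were above 0, with a median of 0.22. The share was 73.3% for other Notch pathway genes, 82.4% for other arterial, 88.9% for venous and 47.8% for other flow-responsive genes. The 95% intervals of the 10 fold changes together ran from 0.650-fold, the lower limit of Gja5, to 1.54-fold, the upper limit of Notch4, so a 2-fold change in either direction lay outside every one of them.

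**Figure D1:**
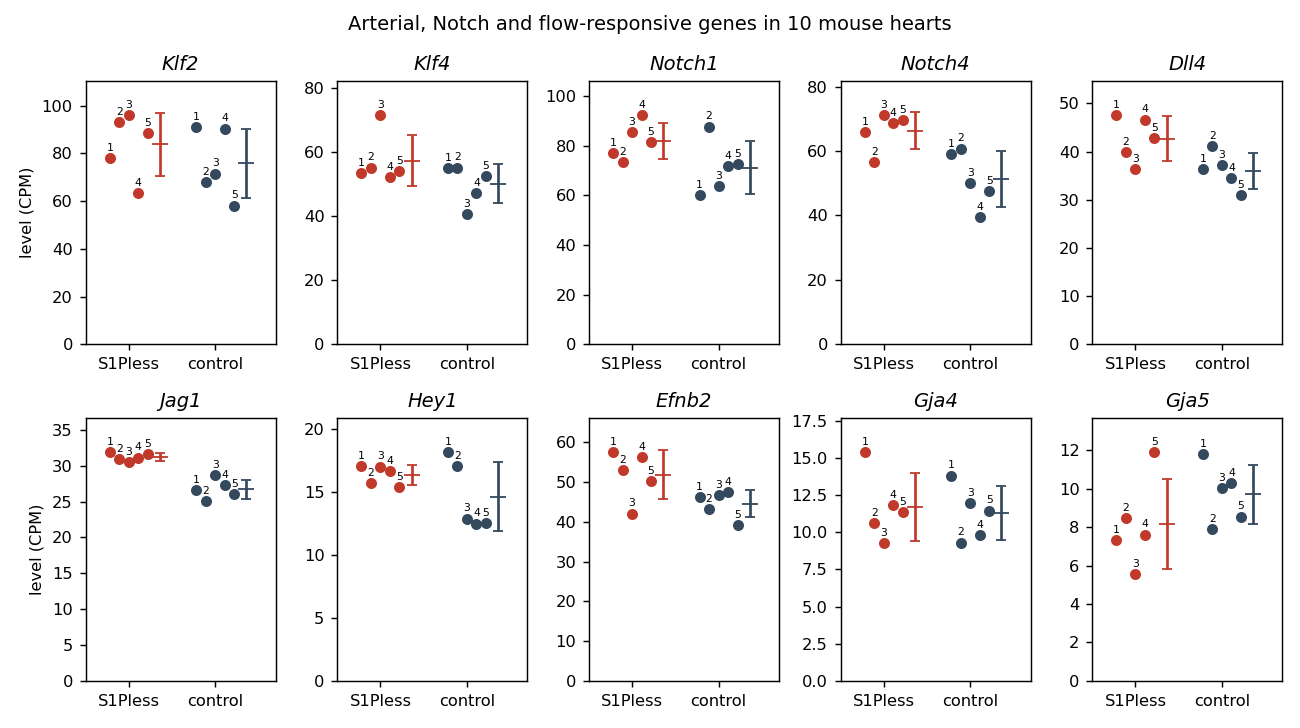
Level of each of the 10 genes in CPM (vertical axis from 0) in 5 S1Pless hearts (red, left) and 5 control hearts (dark, right), with the replicate number above each point and the mean ± SD beside each group. Jag1 is the only gene whose groups do not overlap, with S1Pless hearts at 30.5 to 31.9 CPM and controls at 25.05 to 28.64 CPM. Over all genes tested, 6.35% had groups without overlap.

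The calls depended on how the libraries were scaled. When the libraries were scaled by their totals alone, an alternative chosen after seeing the data, the fold change of the typical gene shifted by 0.136 on the log2 scale and 11.0% of all genes passed (10.9% higher). Of the 10 genes, Jag1, Notch4, Efnb2 and Dll4 then passed, with log2 fold changes of 0.36, 0.51, 0.36 and 0.38 and edgeR adjusted p-values of 0.0112, 0.0173, 0.0359 and 0.0381. Relative to that shift the 4 values lay close to those with TMM factors. Scaled to the summed counts of the 18 endothelial markers instead, 0 of the 10 passed, against 1.93% of all genes (1.60% higher). Every log2 fold change was then smaller or more negative than with TMM factors, with Notch4 at 0.29, Jag1 at 0.14 and Gja4 at -0.03.

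**Figure D2:**
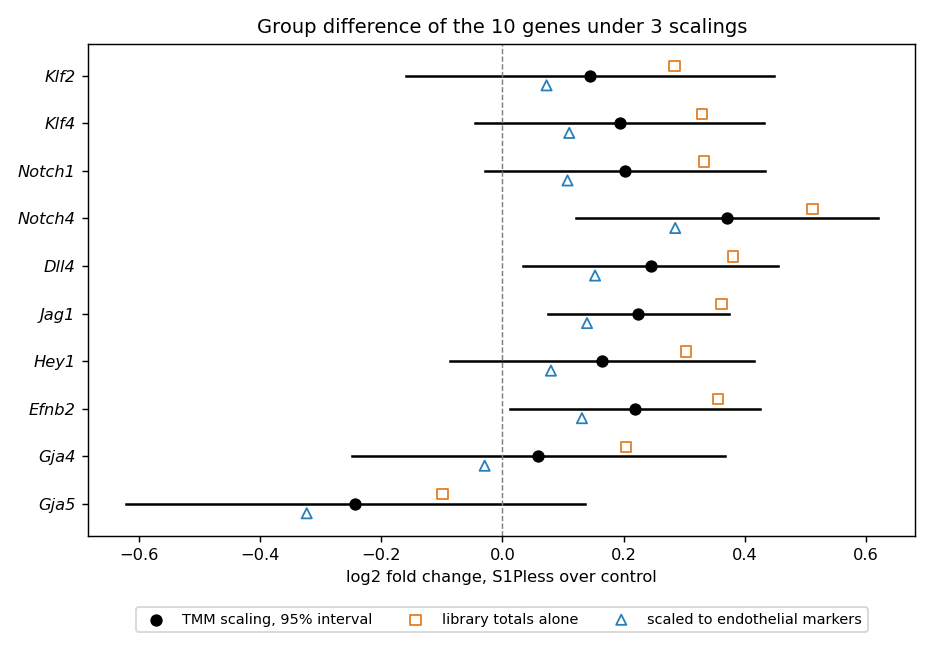
Log2 fold change of S1Pless over control hearts for each of the 10 genes. Black points and lines give the estimate with TMM factors and its 95% interval, orange squares the estimate with library totals alone and blue triangles the estimate scaled to endothelial markers. The squares lie to the right of the black points and the triangles to the left for all 10 genes.

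Klf2 and Klf4 encode the zinc finger transcription factors that laminar flow induces in endothelium, where they keep the cells quiescent and raise Nos3 and Thbd. The kinase cascade ends at a MEF2 element in the Klf2 promoter, so the 150 bases before the annotated start of Klf2 are shown with the MEF2 motif in capitals (RefSeq, GRCm38.p6, chr8:72318912-72319061, plus strand; this is an older build than that of the counts).
Klf2: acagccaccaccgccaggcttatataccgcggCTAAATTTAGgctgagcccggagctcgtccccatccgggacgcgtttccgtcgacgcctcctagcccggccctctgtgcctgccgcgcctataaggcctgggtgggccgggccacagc
The motif searched for was CTA and TAG with any 4 bases between, which reads the same on both strands, in the 250 bases before each start. Of the 9 of the 10 genes with a promoter in the reference, Klf2 alone held a match, as did 3.20% of 32851 promoters. The core of the RBPJ motif, TGGGAA on either strand, was in none of the 9 windows and in 21.6% of all promoters. Hey1 was the gene without a promoter in the reference, so it was not searched for either motif. The motifs do not overlap, and a match describes the letters only.

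Klf2 (ENSMUSG00000055148) stood at 78.0, 93.3, 96.0, 63.5 and 88.5 CPM in S1Pless hearts, against 91.0, 68.1, 71.6, 90.4 and 58.2 CPM in control hearts. Low and high hearts occurred in both groups, and only S1Pless replicates 2 and 3 lay above the highest control. The mean was 83.9 ± 13.3 CPM in S1Pless hearts and 75.9 ± 14.4 CPM in controls (SD, n = 5 each), a log2 fold change of 0.14 ± 0.14 (SE) with an edgeR adjusted p of 0.605. Its 95% interval allows 0.896-fold to 1.36-fold. Klf4 (ENSMUSG00000003032) had 53.5, 55.1, 71.4, 52.1 and 54.1 CPM in S1Pless hearts, against 54.9, 55.1, 40.7, 47.2 and 52.5 CPM in controls. Apart from S1Pless replicate 3, which stood alone at the top, the S1Pless hearts lay within the control range. The log2 fold change of 0.19 ± 0.11 (adjusted p = 0.359, edgeR) became 0.11 without that heart. Both genes are also early response genes in many cell types. The 10 immediate early genes measured beside them summed to 238 to 325 CPM in S1Pless hearts and 232 to 606 CPM in controls, with control replicate 4 at the top. Without that control the log2 fold change of Klf2 was 0.22 and that of Klf4 was 0.17, and neither passed (edgeR adjusted p = 0.479 and 0.499).

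The genes upstream and downstream of both factors showed no call either. Map2k5, which encodes MEK5, averaged 28.4 ± 0.72 CPM in S1Pless hearts and 29.6 ± 1.7 CPM in controls (SD, n = 5 each), and Mapk7, which encodes ERK5, 10.5 ± 0.92 and 8.91 ± 1.1 CPM. Mef2a, Mef2c and Mef2d had log2 fold changes of -0.10 ± 0.09, -0.10 ± 0.09 and -0.14 ± 0.13 (SE). These MEF2 genes are also strongly expressed in heart muscle. Nos3, the endothelial nitric oxide synthase that Klf2 raises, had 63.0, 50.2, 53.8, 62.9 and 59.8 CPM in S1Pless hearts, against 49.8, 50.2, 55.3, 46.5 and 50.1 CPM in controls (log2 fold change 0.20 ± 0.09, edgeR adjusted p = 0.211). Thbd, the thrombomodulin gene and another Klf2 target, had a log2 fold change of -0.04 ± 0.09. Edn1, the vasoconstrictor endothelin-1, which Klf2 represses, had 4.65, 3.60, 3.66, 2.67 and 4.69 CPM in S1Pless hearts, against 5.26, 4.95, 6.50, 5.99 and 5.31 CPM in controls. All 5 S1Pless hearts lay below all controls in Edn1. Of all genes tested 6.35% had no overlap in one direction or the other, but most of these (4.53% of all) were higher in S1Pless hearts. The log2 fold change of Edn1 was -0.54 ± 0.16, but it did not pass in the edgeR test (adjusted p = 0.0879). It passed in DESeq2 (adjusted p = 0.0301) and in limma-voom (adjusted p = 0.0446).

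Of 24 other flow-responsive genes, 23 were tested, with a median log2 fold change of -0.04. Among these, 2 passed with higher levels in S1Pless hearts and none with lower, against 3.40% and 0.316% of all genes tested. Plxnd1, the semaphorin receptor that also acts as a flow sensor, rose 1.36-fold and averaged 215 ± 31 CPM in S1Pless hearts and 159 ± 11 CPM in controls (SD, n = 5 each, edgeR adjusted p = 0.0404). In 4 of 5 S1Pless hearts it lay above the highest control. Of the 10 fits that each left out a heart, 9 lost this call, all but the fit without S1Pless replicate 3, with adjusted p-values up to 0.105. Plxnd1 also lost its call when scaled to endothelial markers and with the number series of the sample titles as a covariate. Hmox1, the haem-degrading enzyme heme oxygenase 1, had 12.5, 14.0, 14.2, 13.2 and 31.9 CPM in S1Pless hearts, against 8.62, 7.79, 9.00, 7.68 and 7.21 CPM in controls. Every S1Pless heart lay above every control, as in 4.53% of all genes tested, and S1Pless replicate 5 stood far above the rest. Hmox1 rose 2.13-fold (log2 fold change 1.09 ± 0.24, edgeR adjusted p = 0.0255), and by 0.73 on the log2 scale without that heart (adjusted p = 0.00759). It did not pass without control replicate 2, 3, 4 or 5 (adjusted p up to 0.0724) or with the number series of the sample titles as a covariate (0.0536). Macrophages also express Hmox1, and the 10 macrophage markers summed to 339, 292, 321, 273 and 632 CPM in S1Pless hearts, against 219, 202, 220, 166 and 187 CPM in controls. The part of macrophages in the Hmox1 result was not tested. Piezo1, a channel opened by flow, and Nqo1, a target of the flow-activated factor NRF2, had log2 fold changes of 0.29 ± 0.09 and -0.31 ± 0.09 without a call (edgeR adjusted p = 0.0910 and 0.0794). Nqo1 averaged 45.8 ± 5.5 CPM in S1Pless hearts and 56.8 ± 2.8 CPM in controls (SD, n = 5 each) with no overlap. Of all genes tested 6.35% had no overlap in either direction, most of them (4.53% of all) with higher levels in S1Pless hearts. Nqo1 passed with a lower level in DESeq2 (adjusted p = 0.0177) and when scaled to endothelial markers (edgeR adjusted p = 0.0463).

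Among the Notch receptors, Notch4 had the largest difference of the 10 genes. Notch4 (ENSMUSG00000015468), the receptor found mainly in endothelium, had 65.8, 56.5, 71.1, 68.6 and 69.5 CPM in S1Pless hearts, against 59.0, 60.7, 49.9, 39.4 and 47.5 CPM in controls. All S1Pless hearts but replicate 2 lay above the highest control. The mean was 66.3 ± 5.8 CPM in S1Pless hearts and 51.3 ± 8.7 CPM in controls (SD, n = 5 each), a log2 fold change of 0.37 ± 0.12 (SE) and an interval of 1.09-fold to 1.54-fold. The edgeR adjusted p was 0.0940, with 0.0600 in DESeq2 and 0.0525 in limma-voom. Notch1 (ENSMUSG00000026923), the main receptor of arterial endothelium and also present in other cells, had 77.2, 73.4, 85.5, 92.3 and 81.6 CPM in S1Pless hearts, against 60.1, 87.8, 63.8, 72.0 and 72.6 CPM in controls. Control replicate 2 was the second highest of all 10 hearts, so the groups overlapped, and the log2 fold change was 0.20 ± 0.11 (adjusted p = 0.319). The other receptors, Notch2 and the smooth muscle and pericyte receptor Notch3, had log2 fold changes of 0.21 ± 0.12 and 0.15 ± 0.13 (edgeR adjusted p = 0.373 and 0.556).

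Among the ligands, Jag1 (ENSMUSG00000027276), made by endothelium and smooth muscle, was the most evenly expressed of the 10 genes. It had 31.9, 30.9, 30.5, 31.1 and 31.6 CPM in S1Pless hearts, against 26.57, 25.05, 28.64, 27.29 and 26.03 CPM in controls. Every S1Pless heart lay above every control, as in 4.53% of all genes tested, or 6.35% with both directions. The log2 fold change was 0.22 ± 0.07 (SE), with an interval of 1.05-fold to 1.30-fold and an edgeR adjusted p of 0.0905. The coefficient of variation of Jag1 in S1Pless hearts, 1.82%, was smaller than the 3.99% that counting error alone gives at its depth. Dll4 (ENSMUSG00000027314), the ligand of arterial and sprouting endothelium, had 47.5, 39.9, 36.4, 46.7 and 42.9 CPM in S1Pless hearts, against 36.4, 41.2, 37.2, 34.4 and 31.0 CPM in controls. S1Pless replicates 1, 4 and 5 lay above the highest control and replicates 2 and 3 did not. Its log2 fold change was 0.24 ± 0.10 with an edgeR adjusted p of 0.186. Counts of Notch1 and Dll4 could include reads of noncoding genes annotated on the opposite strand across their exons, since the strand setting of the counting is not given.

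The target Hey1 (ENSMUSG00000040289), a repressor that Notch switches on in arteries, had 17.06, 15.71, 17.004, 16.63 and 15.36 CPM in S1Pless hearts, against 18.16, 17.04, 12.88, 12.47 and 12.51 CPM in controls. The S1Pless hearts all lay inside the control range, above the 3 low controls and below the highest, with S1Pless replicate 1 at nearly the same level as control replicate 2. Its log2 fold change was 0.16 ± 0.12 (edgeR adjusted p = 0.464). The other direct targets gave no call. Hes1 averaged 23.8 ± 3.3 CPM in S1Pless hearts and 23.3 ± 3.6 CPM in controls, Heyl 37.5 ± 1.8 and 35.8 ± 2.8 CPM, and Hey2 6.30 ± 0.24 and 7.4997 ± 0.85 CPM (SD, n = 5 each). Nrarp, a feedback inhibitor of the pathway, had a log2 fold change of 0.27 ± 0.14 (SE, edgeR adjusted p = 0.285).

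For 30 other Notch pathway genes, all tested, the median log2 fold change was 0.06. Among them 1 passed with a higher level and none with a lower one, against 3.40% and 0.316% of all genes tested. That gene was Mfng (ENSMUSG00000018169), which encodes manic fringe, a glycosyltransferase that adds sugars to Notch receptors and shifts their preference towards Delta ligands. Mfng had 20.3, 14.2, 19.2, 20.6 and 20.2 CPM in S1Pless hearts, against 11.9, 13.5, 13.0, 9.91 and 11.5 CPM in controls. All 5 S1Pless hearts lay above all controls, as in 4.53% of all genes tested, with S1Pless replicate 2 close to the highest control. Mfng rose 1.58-fold (log2 fold change 0.66 ± 0.12, SE, edgeR adjusted p = 0.0139), and it also passed whichever heart was left out (10 fits, adjusted p up to 0.0419) and when scaled to endothelial markers (adjusted p = 0.0225). It did not pass in the hearts whose sample title carries a number beginning with 38 (S1Pless replicates 1 to 3 and control replicates 1 to 4, log2 fold change 0.56, adjusted p = 0.137), or without both S1Pless replicates 3 and 5 (adjusted p = 0.0699). The other fringe genes had log2 fold changes of 0.13 for Lfng and -0.02 for Rfng. Blood cells also express Mfng. Of the 10 macrophage markers measured beside it, 6 passed with higher levels, and the part of such cells in the Mfng result was not tested. Adam10, the protease that makes the first activating cut, the coactivator Maml2 and the Notch antagonist Numbl had log2 fold changes of 0.24 ± 0.10, 0.23 ± 0.10 and 0.39 ± 0.14 without a call (edgeR adjusted p = 0.198, 0.243 and 0.156), and Rbpj had 0.24 ± 0.13 (adjusted p = 0.324).

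**Figure D3:**
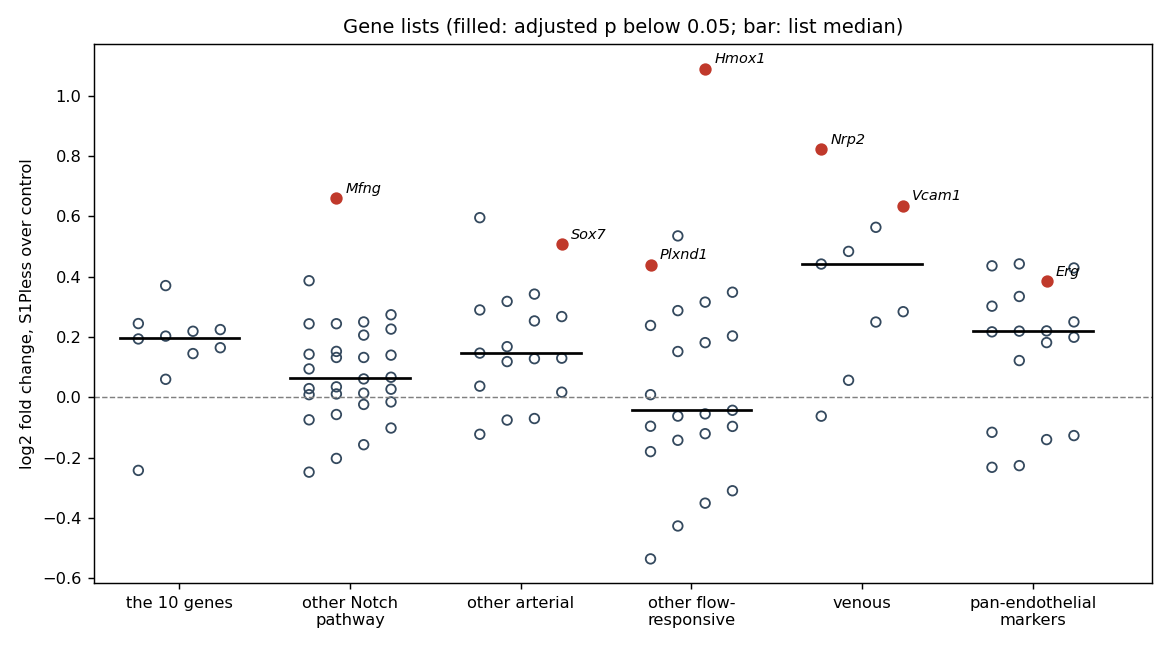
Log2 fold change of S1Pless over control hearts (vertical axis) for each tested gene of 6 gene lists, with filled red points for genes at an adjusted p below 0.05 (edgeR) and open points for the rest. Black bars mark the median of each list, which is 0.20 for the 10 genes, 0.06 for other Notch pathway genes, 0.15 for other arterial genes, -0.04 for other flow-responsive genes, 0.44 for venous genes and 0.22 for the general endothelial markers.

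None of the arterial surface genes passed the test. Efnb2 (ENSMUSG00000001300) encodes ephrin-B2, the membrane ligand that marks arterial endothelium and is also present in smooth muscle and pericytes. It had 57.5, 53.0, 42.0, 56.2 and 50.3 CPM in S1Pless hearts, against 46.2, 43.2, 46.6, 47.4 and 39.2 CPM in controls. All S1Pless hearts but replicate 3 lay above the highest control, and the log2 fold change was 0.22 ± 0.10 (SE, edgeR adjusted p = 0.224). Gja4 (ENSMUSG00000050234), which encodes connexin 37, had 15.4, 10.6, 9.29, 11.8 and 11.4 CPM in S1Pless hearts, against 13.81, 9.299, 11.98, 9.804 and 11.45 CPM in controls. The highest and the lowest heart were both S1Pless, and the log2 fold change was 0.06 ± 0.14 (adjusted p = 0.855), with an interval of 0.842-fold to 1.29-fold.

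Gja5 (ENSMUSG00000057123) encodes connexin 40, which joins arterial endothelial cells and is also made in atrial muscle and the conduction system. It had 7.31, 8.46, 5.57, 7.61 and 11.9 CPM in S1Pless hearts, against 11.8, 7.90, 10.0, 10.3 and 8.55 CPM in controls. S1Pless replicates 1, 3 and 4 lay below the lowest control while S1Pless replicate 5 was the highest heart of all. The log2 fold change was -0.24 ± 0.18 (SE, edgeR adjusted p = 0.475) and became -0.43 without that heart (adjusted p = 0.187). S1Pless replicate 3, the heart with Myl7 and Sln, had the lowest Gja5 value, and without it the log2 fold change was -0.13. Exons of Gja5 overlap those of Gpr89 on the opposite strand, a gene with 248 to 396 reads per library.

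Of 18 other arterial endothelial genes 17 were tested. Among these 1 passed with a higher level and none with a lower one, against 3.40% and 0.316% of all genes tested. That gene was Sox7, a SOXF transcription factor of endothelium that acts with Notch in arterial specification. It had 50.1, 35.6, 40.9, 43.6 and 43.1 CPM in S1Pless hearts, against 26.8, 32.1, 32.7, 23.2 and 35.2 CPM in controls. Every S1Pless heart lay above every control, as in 4.53% of all genes tested, by a narrow margin between S1Pless replicate 2 and control replicate 5. Sox7 rose 1.42-fold (log2 fold change 0.51 ± 0.12, edgeR adjusted p = 0.0330). Leaving out a heart ended its call in 7 of 10 cases, all but S1Pless replicates 2 and 3 and control replicate 5 (adjusted p up to 0.0832), as did scaling to endothelial markers (adjusted p = 0.0894). The related factors Sox17 and Sox18 had log2 fold changes of 0.25 ± 0.13 and 0.34 ± 0.15 without a call (edgeR adjusted p = 0.293 and 0.222). Sema3g and Unc5b, guidance genes of arterial endothelium, had 0.32 ± 0.11 and 0.27 ± 0.11 (adjusted p = 0.130 and 0.204), and the Eph receptor gene Ephb1 had 0.60 ± 0.18 (adjusted p = 0.0797). Ephb1 passed in DESeq2 (adjusted p = 0.0366).

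Venous genes were measured as the counterpart. Of 10, 9 were tested, with a median log2 fold change of 0.44. Among these 9, 2 passed with higher levels and none with lower, against 3.40% and 0.316% of all genes tested. Nrp2, a coreceptor for semaphorins and VEGF-C on veins and lymphatic vessels, had 117, 112, 96.7, 112 and 132 CPM in S1Pless hearts, against 65.9, 58.6, 60.2, 61.5 and 76.1 CPM in controls. The groups lay well apart, and in 4.53% of all genes tested every S1Pless heart lay above every control. Nrp2 rose 1.77-fold (log2 fold change 0.82 ± 0.10, edgeR adjusted p = 0.00214) and passed under each of the 22 other settings tried, with adjusted p-values up to 0.0192. Of 6 lymphatic markers measured beside it, Lyve1, Ccl21a, Mmrn1 and Reln passed with higher levels and Pdpn did not pass. Prox1, the regulator of lymphatic identity and the largest part of their summed CPM, averaged 61.9 CPM in S1Pless hearts and 78.2 CPM in controls (log2 fold change -0.34, edgeR adjusted p = 0.218). Prox1 is also made in heart muscle. The sum of the 6 was 129 to 175 CPM in S1Pless hearts and 99.5 to 140 CPM in controls. The part of lymphatic vessels in the Nrp2 result was not tested. The other call was Vcam1, an adhesion molecule that cytokines induce on endothelium, which rose 1.55-fold (adjusted p = 0.0415) and no longer passed in 7 of the 10 cases in which a heart was left out, all but S1Pless replicates 3 and 4 and control replicate 1 (adjusted p up to 0.107). The genes that set venous identity gave no call. Nr2f2, the venous fate regulator, had a log2 fold change of 0.28 ± 0.12, and Ephb4, the venous receptor for ephrin-B2, of 0.25 ± 0.10 (edgeR adjusted p = 0.2004 and 0.2037), beside the 0.22 ± 0.10 of Efnb2 itself.

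**Figure D4:**
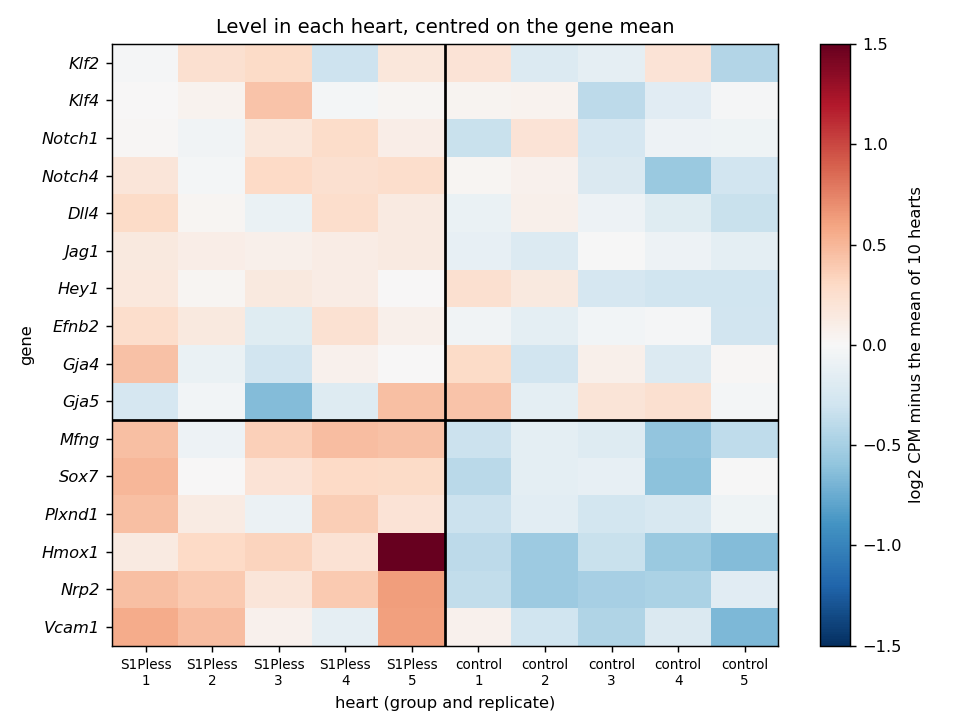
Level of the 10 genes (above the line) and of the 6 called genes from the Notch, arterial, flow-responsive and venous lists (below it) in each heart, as log2 CPM minus the gene's mean over the 10 hearts, red above and blue below that mean. Rows below the line are mostly red in S1Pless hearts and blue in controls, with Hmox1 in S1Pless replicate 5 as the strongest cell, 1.49 above its mean, while Gja5 has the opposite colours in most hearts.

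Within a library, ratios of paired genes do not depend on scaling. Notch4 reads per Notch1 read averaged 0.810 ± 0.050 in S1Pless hearts and 0.732 ± 0.16 in controls, and Dll4 per Jag1 1.37 ± 0.13 and 1.35 ± 0.18 (SD, n = 5 each). Klf4 per Klf2 averaged 0.691 ± 0.095 and 0.681 ± 0.17, and Gja5 per Gja4 0.712 ± 0.22 and 0.867 ± 0.11. None of the 4 ratios, chosen after seeing the data, differed beyond the spread between hearts (two-sided exact permutation p = 0.302, 0.897, 0.817 and 0.151, adjusted p = 0.603, 0.897, 0.897 and 0.603 over the 4). The mean log2 difference of Gja5 per Gja4 was -0.33.

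Compared per kilobase of merged exon, the flow-induced factors stood above the rest. Over the 10 hearts Klf2 averaged 43.2 ± 7.4 CPM per kilobase, Klf4 17.6 ± 2.5, Dll4 10.2 ± 1.4, Notch4 7.30 ± 1.3, Efnb2 7.03 ± 0.88, Gja4 6.82 ± 1.2, Notch1 5.38 ± 0.73, Jag1 4.97 ± 0.44, Hey1 4.74 ± 0.65 and Gja5 1.56 ± 0.35 (SD, n = 10). The ranges of Klf2 and Klf4 did not touch each other or that of Dll4, and Gja5 lay apart at the bottom. Neighbouring genes from Dll4 down to Hey1 had overlapping ranges over hearts. Within each heart Dll4 still lay above Notch4 in 10 of 10 hearts, while each later gene down to Jag1 exceeded the next in only 6 to 8 of 10 hearts. The exon lengths come from GENCODE M21, an annotation of an older build.

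The hearts differed among themselves in these genes by about as much as in other genes. The coefficient of variation of the 10 genes was 1.82% to 28.6% in S1Pless hearts and 5.06% to 19.04% in controls, against a median of 12.5% and 14.15% over all genes tested. With each group centred on its own mean, the average standardised pattern of the 10 genes was highest in control replicate 1 and lowest in control replicate 5. Of 12332 other genes ranked, those averaging 1 CPM or more, the 3 most like that pattern over the 10 hearts were Nsmf (Pearson's r = 0.97, Spearman's rho = 0.94), Ajuba (r = 0.93, rho = 0.88) and Arfip2 (r = 0.91, rho = 0.95). These values describe the likeness only, since they were picked as the highest of all genes and the hearts share their scaling.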

How the data were processed

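The authors deposited raw read counts per Ensembl gene in 1 table for all 10 hearts. Reads went through STAR 2.7.8a and featureCounts 2.0.1 with GRCm39, per the submitters' processing notes. Libraries came from a stranded mRNA kit, per the labels' protocols. Strand setting and annotation release: not given in the sources used here. Symbols and exon lengths came from GENCODE M21.

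Grouping is by labelled genotype. Replicate numbers follow accession order and pair nothing. The labels list every heart as its own sample, and within groups all 20 pairs of hearts differed by more than sampling noise (lowest chi-square over its degrees of freedom, 10.4). Counts were filtered (filterByExpr, minimum count 10), scaled by TMM and tested two-sided with robust glmQLFit and glmQLFTest of edgeR 4.0.16 (R 4.3.3). P-values were adjusted by Benjamini-Hochberg and called at 0.05. The SE is the absolute log2 fold change over the root of F, and 95% intervals use t quantiles. The test was tried on simulated counts with known changes. It recovered 50.7% of 1.5-fold, 89.6% of 2-fold and 98.5% of 4-fold changes, and 2.45% of its calls were false. The simulated counts were drawn from the model that the test itself fits, with no outlying heart or title series effect added. Changes below 1.5-fold were not simulated. The estimates of all 10 genes were smaller than that, so these rates do not describe them. Alternatives with DESeq2 1.42.0 and limma 3.58.1 and with other filters, scalings and sets of hearts are given with the sensitivity of the results.

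The 10 genes and all lists were chosen with earlier results of these data known. Named genes are the 10, the kinase genes, up to 4 called genes per list and the 3 genes most like the 10. Others were named for their role after their values were seen.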

Additional observations from a re-analysis of the deposited data

Results flagged for a closer look

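Among 98 groups of 5 hearts examined (49 named genes in each genotype), 4 held a heart far from the other 4. About 1 in 20 groups is expected to do so by chance. The highest S1Pless heart in Klf4, replicate 3, had 71.4 CPM and the other S1Pless hearts at most 55.1 CPM. In Mfng the lowest S1Pless heart, replicate 2, had 14.2 CPM and the others at least 19.2 CPM. In Hmox1 and in Notch2 the highest S1Pless heart was replicate 5, with 31.9 CPM in Hmox1 and 38.7 CPM in Notch2, and the other S1Pless hearts had at most 14.2 and 30.3 CPM.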

How the results depend on the processing

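The count of called genes among the 10 remained at 0 under 20 other filters, scalings, tests and sets of hearts and without both S1Pless replicates 3 and 5, and was 4 with library totals alone. With library totals alone 4 other Notch pathway genes, 4 other arterial, 5 other flow-responsive and 4 venous genes passed, and 1433 of all genes (1420 higher and 13 lower) in place of 483 (442 higher and 41 lower). DESeq2 called 2 arterial and 4 flow-responsive genes (2 higher and 2 lower) and 1019 of all genes (753 higher and 266 lower). Scaled to endothelial markers, 0 arterial, 1 venous, 2 flow-responsive (1 higher and 1 lower) and 251 of all genes passed. The hearts of the 38 title series alone gave 0 Notch pathway, 0 arterial, 1 flow-responsive, 1 venous and 46 of all genes, and leaving out both S1Pless replicates 3 and 5 gave 0, 0, 1, 1 and 99. Removing haemoglobin and mitochondrial genes left 1 flow-responsive call, beside 472 of 13013 genes over all. A covariate for the title series left 0, beside 360 of 12992 genes. With 1 heart left out, calls numbered 0 to 0 among the 10 genes, 1 to 1 in the Notch pathway list, 0 to 1 in the arterial, 0 to 3 in the flow-responsive and 1 to 3 in the venous list, and 126 to 589 over all genes. The cause of these moves was not tested. Leaving out a single heart moved the count over all genes both ways, to 589 without control replicate 1 and to 126 without control replicate 3. Signs turned only in genes near 0. In log2 units, scaling to endothelial markers gave -0.029 for Gja4, -0.084 for Ajuba, -0.069 for Hes1 and -0.023 for Heyl. Library totals gave 0.059 for Arfip2, 0.097 for Thbd, 0.075 for Map2k5, 0.038 for Mef2a and 0.036 for Mef2c. The hearts of the 38 title series gave -0.074 for Ajuba, -0.0061 for Heyl and 0.012 for Thbd, and limma-voom gave -0.030 for Hes1 and 0.0074 for Thbd. Ajuba was -0.012 with RLE factors, -0.013 in DESeq2 and -0.011 without haemoglobin and mitochondrial genes. With a heart left out, Gja4 ran from -0.060 to 0.14, Ajuba from -0.040 to 0.050, Arfip2 from -0.17 to 0.016 and Hes1 from -0.067 to 0.093. No paired analysis was possible because the labels give the groups no shared replicate numbers: controls are described as littermates, but no label says which hearts share a litter, and neighbouring numbers in some sample titles are not said to mark one.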

Other observations

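Of the 18 general endothelial markers, 13 had a log2 fold change above 0 and 5 below. Erg, a transcription factor of endothelium, was the 1 of 18 that passed, against 3.40% of all genes tested with a higher level. It averaged 52.0 CPM in S1Pless hearts and 39.9 CPM in controls (log2 fold change 0.38 ± 0.09, edgeR adjusted p = 0.0332). The VEGF receptor genes Kdr and Flt1 had log2 fold changes of -0.23 ± 0.11 and -0.23 ± 0.09, while Cd34 and Pecam1 had 0.44 ± 0.12 and 0.30 ± 0.09, none of them past the threshold (edgeR adjusted p = 0.275, 0.186, 0.0658 and 0.0909).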
